A study of Mus musculus with 6 samples.

Results

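The SOX proteins are transcription factors that bend DNA on binding, and their groups are named by letters. Members of a group often bind the same DNA motif and can stand in for each other where they are expressed together. In skin, SOX9 marks progenitors of the hair follicle, SOX21 acts in the hair cuticle, SOX18 and SOX7 belong to the endothelium of vessels, and the SOXC proteins SOX4 and SOX11 are known from embryonic progenitors.

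The 10 Sox genes described here were Sox4, Sox11 and Sox12 (SOXC), Sox6 and Sox13 (SOXD), Sox9 (SOXE), Sox7 and Sox18 (SOXF), Sox15 (SOXG) and Sox21 (SOXB2). Every array probe whose RefSeq accession carried one of these symbols was taken, which gave 13 of the 55681 probes on the array. Sox4, Sox11 and Sox21 had 2 probes each, and the other 7 genes had 1 each. A further 10 mouse Sox genes had 13 probes and are used for comparison.

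RNA came from the epidermis of mouse embryos at embryonic day 16 (E16) and was hybridised to 6 Agilent arrays in 2 colours. Each array held knockout RNA in one dye and RNA of a wild-type littermate's epidermis in the other, with the dyes swapped between both replicates of a genotype. There were 2 arrays, labelled as biological replicates, for each of 3 genotypes: Sox4cKO, Sox11cKO and Sox4/11 dcKO, where cKO is a conditional knockout and dcKO lacks both genes. The labels give the strain of every knockout and wild-type sample as 129SvEx:C57BL/6.

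The double knockout carried Krt14-Cre with homozygous floxed alleles of Sox11 and Sox4 (fl/fl), and Sox11cKO had the same Cre with floxed Sox11 alone. The full genotype of Sox4cKO is not spelled out in the sources used here. The Krt14 promoter drives Cre in basal keratinocytes, so dermal, vascular, pigment and nerve cells in a preparation keep intact alleles. By the study's methods the Cre line was FVB/N, and the founding floxed mice also lacked Sox12. The Sox12 genotype of the embryos on the arrays is not given in the sources used here, and neither do they say if the arrays used common wild-type RNA. Keratinocyte identity was plain, since all 8 keratinocyte markers examined (Krt5, Krt14, Krt1, Krt10, Trp63, Cdh1, Dsp and Perp) were well above background in all 12 channels.

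The arrays were dim, with 38.9% to 43.6% of spots well above background in a channel. Over all probes, the log2(knockout/wild type) values of both replicates correlated at −0.106 in Sox4cKO, −0.089 in Sox11cKO and 0.206 in dcKO. Genes of dermal fibroblasts differed strongly between replicates of the single knockouts, and their median was low on both dcKO arrays. The median log2 ratio of 8 of them was −3.0 and 0.87 on the Sox4cKO arrays, 1.11 and −0.68 on the Sox11cKO arrays, and −1.71 and −1.53 on the dcKO arrays. In bulk tissue, fewer cells of a type and less RNA per cell cannot be told apart.

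Detection was examined first, to learn which Sox transcripts the arrays could measure. Each channel carries a mark of the scanner software for a probe well above background, so a probe could have this mark in up to 12 channels, 6 of the wild type and 6 of the knockouts. Among the 13 probes, 5 were above background in all 12 channels, 7 in 1 to 11 channels and 1 in none. Over all probes on the array, 32.5% were marked in all 12 channels and 51.3% in none. The 5 probes that were always above background belonged to Sox4, Sox6, Sox9, Sox13 and Sox15.

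**Figure D1:**
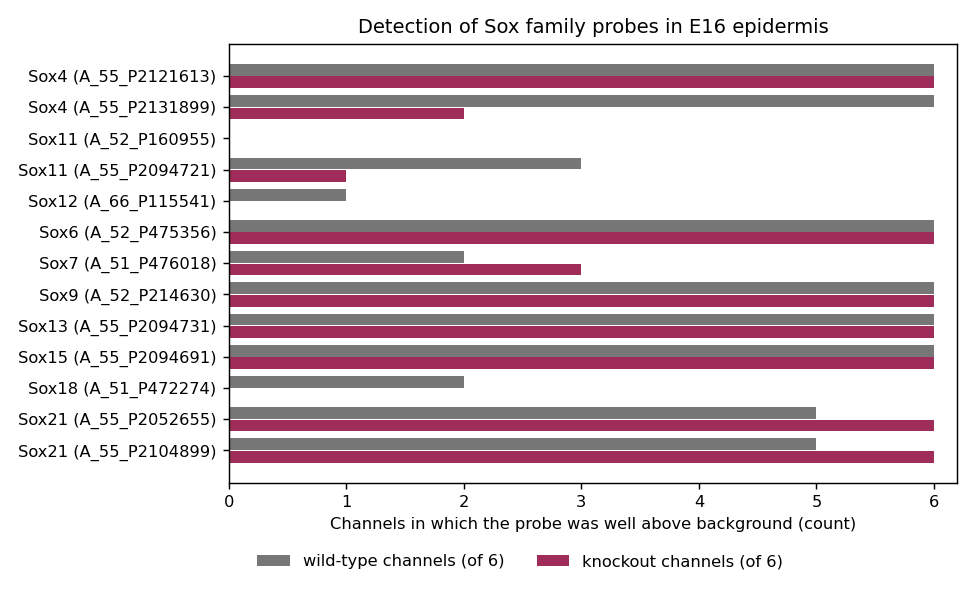
Number of channels (of 6 wild-type, grey, and 6 knockout, purple) in which each of the 13 Sox probes was well above background. The bars are full for the probes of Sox4 (A_55_P2121613), Sox6, Sox9, Sox13 and Sox15, the second Sox4 probe is full in the wild type with 2 knockout channels, and the Sox11 probe A_52_P160955 has none.

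The SOXC genes differed in detection. Sox4 was marked in all 6 wild-type channels with both of its probes. One Sox11 probe (A_55_P2094721) was marked in 3 of 6 wild-type channels and 1 of 6 knockout channels, and the other (A_52_P160955) in none. Sox12, the third SOXC gene, was marked in 1 of 6 wild-type channels and in no knockout channel. Of the endothelial genes, Sox7 was marked in 2 wild-type and 3 knockout channels and Sox18 in 2 wild-type channels and no knockout channel. Both Sox21 probes were marked in 5 of 6 wild-type and 6 of 6 knockout channels. A probe without the mark is not shown to lack its transcript, and the brightness of one probe says nothing about another, so the genes were not ranked by level.

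The wild-type channels also gave the spread of each transcript without any knockout. The level of a channel is its log2 intensity after normalization. The bright Sox4 probe (A_55_P2121613) lay between 8.78 and 9.60 over the 6 wild-type samples, with a median of 9.20. The dim Sox4 probe (A_55_P2131899) lay between 6.40 and 7.05, with a median of 6.80. Each Sox4 probe thus varied over less than 1 log2 unit among wild-type samples. Sox13 was the least variable of the 13 probes, with a range of 5.61 to 5.69 and an SD of 0.03 (n = 6). It was marked in every channel, but this level is low, within the wild-type range of the Sox7 probe (4.87 to 5.80). The SD of Sox9, a mean over up to 10 spots per array, was 0.11. With 1 spot each, the SD of Sox6 was 0.14 and that of Sox15 0.19. The Sox11 probe that was sometimes marked had the widest SD, 0.34, around a median of 5.44, and Sox7 (0.32) and Sox18 (0.31) came next, all of them near background.

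Sox4, one of the targeted genes, was examined in every sample. With the dim probe, the knockout level was 4.74 and 4.79 in the replicates of Sox4cKO, against 6.40 and 7.05 in their wild-type partners. In dcKO it was 5.20 and 5.23, against 6.75 and 6.85. In Sox11cKO, where Sox4 is intact, it was 6.94 and 6.58, against 6.86 and 6.49. All 4 samples with deleted Sox4 lay below every wild-type sample, and none of these 4 was marked as above background. Both Sox11cKO samples lay within the wild-type range.

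The fall of this probe passed the test in both genotypes that lack Sox4. The fitted log2 fold change was −1.96 in Sox4cKO (SE 0.15, 95% interval −2.30 to −1.62, limma adjusted p = 0.0284) and −1.58 in dcKO (SE 0.15, −1.92 to −1.24, adjusted p = 0.00223). Because the knockout lay in the background, the wild-type mean was also set against the lowest signal above background, or the knockout's own signal if higher. By this the knockout was 3.05-fold lower in Sox4cKO and 3.0-fold lower in dcKO. These folds hold for the main processing, are between group means and leave out the spread between arrays. In dcKO the fold equals the measured difference. In Sox11cKO the fitted log2 fold change was 0.08 (limma adjusted p = 0.948). This was the only Sox probe of 13 to pass in Sox4cKO, where 0.00539% of all probes passed, and the only one of 13 in dcKO, where 0.833% passed.

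The call in Sox4cKO did not hold without Sox4cKO replicate 1 (−2.25, adjusted p = 0.0594), without either Sox11cKO array (adjusted p = 0.0808 each), or when dim probes were left out of the test (0.0776). With the scanner software's own log ratio the values were larger, −4.74 in Sox4cKO (adjusted p = 0.52) and −3.70 in dcKO (adjusted p = 0.235), and did not pass.

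The bright Sox4 probe changed less. On the Sox4cKO arrays its log2 ratio was −0.14 and −0.71, on the Sox11cKO arrays 0.05 and 0.18, and on the dcKO arrays −0.96 and −0.69. Its knockout levels in dcKO, 8.32 and 8.45, were below the whole wild-type range, whereas those in Sox4cKO, 9.11 and 8.90, fell inside it. The probe was above background in every knockout channel, including the 4 with deleted Sox4. The fitted change was −0.42 in Sox4cKO (95% interval −0.80 to −0.05, limma adjusted p = 0.802), 0.12 in Sox11cKO (−0.26 to 0.49, adjusted p = 0.928) and −0.82 in dcKO (−1.20 to −0.45, adjusted p = 0.0768). None of these passed, although the dcKO value passed with a background offset of 50 (−0.77, adjusted p = 0.00932), without background subtraction (−0.80, 0.0138), without either Sox4cKO array (0.0272) and with the dcKO arrays alone (0.048).

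**Figure D2:**
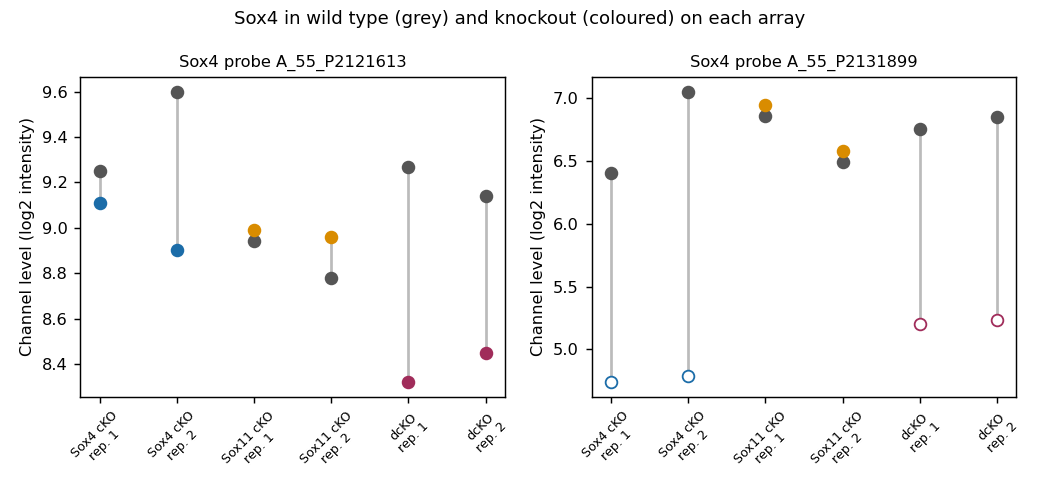
Normalized log2 intensity of both Sox4 probes in the wild-type (grey) and knockout (coloured) channel of each of the 6 arrays, joined by a line per array, with open circles for channels not well above background. The dim probe (right) drops from 6.40 to 7.05 in the wild type to 4.74 to 5.23 in Sox4cKO and dcKO, while the bright probe (left) stays above 8.3 in every channel, and each panel has its own scale.

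The 2 Sox4 probes were correlated over the 6 arrays (Pearson r = 0.794 after the dye term was removed), which is given as a description, since the arrays share genotypes in pairs. Where each probe lies relative to the floxed part of Sox4 is not known here, so a probe outside it would not report the deletion.

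Whether the fall of Sox4 differed between genotypes was tested directly. With the dim probe, dcKO minus Sox11cKO was −1.66 (95% interval −2.14 to −1.18, limma adjusted p = 0.0257), the only Sox probe of 13 to pass in a contrast where 0.163% of all probes passed. At an unadjusted p under 0.05 it was 4 of 13, against 7.21% of all probes. It did not pass with the scanner software's ratio (−3.69, adjusted p = 0.429), without the replicate block (−1.66, 0.0504), without Sox11cKO replicate 1 (−1.84, 0.114) or 2 (−1.49, 0.295), or without dcKO replicate 1 (−1.55, 0.077). Sox4cKO minus Sox11cKO was larger, −2.04 (−2.52 to −1.56), with an adjusted p of 0.172, and passed without either dcKO array (0.00568). In that contrast 0 of 13 Sox probes passed by limma, against 0.0018% of all probes, and 2 of 13 had an unadjusted p under 0.05, against 5.28%. The dim probe did not differ detectably between dcKO and Sox4cKO (0.38, −0.10 to 0.86, adjusted p = 0.864), where 0 of 13 Sox probes passed by limma, against 0.147% of all probes, and 2 of 13 had an unadjusted p under 0.05, against 6.12%.

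Sox11, the other targeted gene, was near background in the wild type. With A_55_P2094721, the level on the Sox11cKO arrays was 5.30 and 5.26 in the knockout against 5.04 and 5.43 in the wild type. On the Sox4cKO arrays it was 5.58 and 5.28 against 5.82 and 4.87. On the dcKO arrays it was 4.57 and 4.97 against 5.52 and 5.45. The Sox11cKO samples therefore lay inside the wild-type range of 4.87 to 5.82, and 1 of the dcKO samples lay below it.

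The fitted change of this Sox11 probe was 0.05 in Sox11cKO (95% interval −0.38 to 0.47, limma adjusted p = 0.979), 0.08 in Sox4cKO (adjusted p = 0.972) and −0.72 in dcKO (−1.14 to −0.29, adjusted p = 0.196). In dcKO the wild type was above background on 1 of 2 arrays and the knockout on neither. By the comparison with background used for the dim Sox4 probe, the knockout was 1.36-fold lower in dcKO. The second Sox11 probe, never above background, had values of 0.00 in Sox4cKO, −0.09 in Sox11cKO and −0.28 in dcKO (adjusted p = 0.999, 0.921 and 0.517). The deletion of Sox11 thus could not be read from these probes in Sox11cKO, and their position relative to the floxed part is not known here. The study reports that it checked the loss of Sox4 and Sox11 by quantitative PCR in the knockout RNAs before using them on the arrays. No Sox probe passed in Sox11cKO, where 0% of all probes passed by limma, and at an unadjusted p under 0.05 it was 0 of 13 Sox probes and 7.05% of all probes.

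The log2 ratio of the Sox11 probe A_55_P2094721 had the same sign as the median of the 8 dermal fibroblast genes on 6 of 6 arrays, as did 1.28% of all probes. Sox18 did so on 5 of 6 arrays, both Sox4 probes on 4, Sox7 on 1 and the Sox21 probe A_55_P2104899 on none. Neither channel of the Sox11 probe was above background on Sox4cKO replicate 2, Sox11cKO replicate 1 and dcKO replicate 2. Sox18 was above background only in the wild type of Sox4cKO replicate 1 and of dcKO replicate 1. The signs are those of background signal on the arrays just named for Sox11, and on the arrays not named for Sox18. The part of the dermal genes in the Sox11 values was not tested. Of these 8 genes, 7 were above background in all 12 channels and none passed in any genotype. The ratios of Col1a1, Col1a2, Col3a1, Lum and Twist2 moved most, those of Pdgfra less, whereas Dcn stayed between −0.21 and 0.46 on all arrays. Thy1 went against the median on several arrays, with 1.37 on Sox11cKO replicate 2 and 0.40 and 0.33 in dcKO. The summed intensity of the 8 genes ranged from 7150 to 22300 in the wild type and from 7560 to 12500 in the knockouts.

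**Figure D3:**
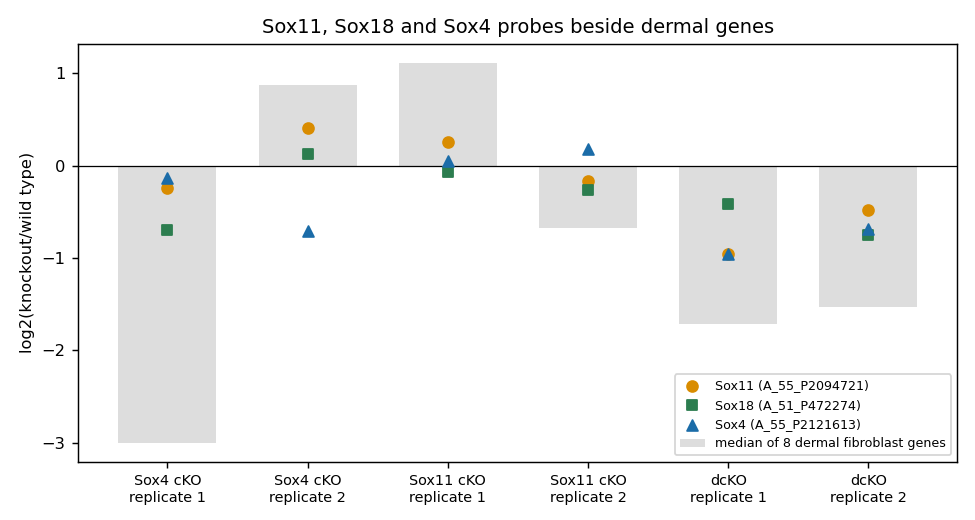
Log2(knockout/wild type) of Sox11 (A_55_P2094721), Sox18 and the bright Sox4 probe on each of the 6 arrays (points), beside the median of 8 dermal fibroblast genes on the same array (grey bars from 0). The Sox11 points lie on the same side of 0 as the bar on all 6 arrays, and the Sox4 points on 4. Points are filled also where neither channel was well above background, as for Sox11 and Sox18 on several arrays.

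Sox12, the SOXC gene that was not targeted by Cre, was hardly measurable. Its log2 ratio was 0.31 and −0.32 in Sox4cKO, 0.47 and −0.35 in Sox11cKO, and −0.19 and 0.02 in dcKO. In both single knockouts the replicates had opposite signs. The fitted change was 0.00 in Sox4cKO, 0.06 in Sox11cKO and −0.09 in dcKO, with 95% intervals whose upper ends were 1.33-fold, 1.39-fold and 1.26-fold (limma adjusted p = 0.999, 0.97 and 0.929). By the scanner software's ratio it was 0.49, 0.56 and −1.16 in the same order. In the single knockouts these values lie above the upper ends, 0.41 and 0.48 on the log2 scale, so the intervals do not bound a rise. With 1 of 12 channels above background, a change of Sox12 from one level below background to another would not be seen.

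The question of a rise of one SOXC gene on loss of the other could be put to Sox4 in Sox11cKO. There the upper end of the 95% interval was 1.40-fold for the bright probe and 1.34-fold for the dim one. Sox11 (A_55_P2094721) in Sox4cKO had replicates of −0.24 and 0.41 and an upper end of 0.51 on the log2 scale. On replicate 2 neither channel was above background, so a rise of Sox11 below background would not be seen. By the scanner software's ratio the fitted change was 0.58, above that upper end.

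Outside SOXC, the hair follicle gene Sox9 had the steadiest values. Its probe is printed 10 times on the array. The log2 ratio was −0.16 and −0.20 in Sox4cKO, −0.20 and −0.19 in Sox11cKO, and −0.37 and −0.40 in dcKO. It was below 0 on all 6 arrays, as were 2.3% of all probes. Among its spots with no outlier mark, between 7 of 9 and 10 of 10 were lower in the knockout on each array. Spots of one array are not replicates of a genotype.

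The fitted change of Sox9 was −0.18 in Sox4cKO (limma adjusted p = 0.868), −0.20 in Sox11cKO (0.791) and −0.38 in dcKO (95% interval −0.67 to −0.10, 0.342), none of which passed. Of 8 hair bud genes examined beside it, 1 passed, since Krt17, a keratin of the hair placode and activated epidermis, fell in dcKO by 1.37 on the log2 scale (adjusted p = 0.00507), beside 0.309% of all probes that were lower there. Shh, the signal of the hair bud, had 0.79 and 0.34 in dcKO (fitted 0.57, adjusted p = 0.123). The median of the 8 was −0.12 in Sox4cKO, 0.02 in Sox11cKO and −0.25 in dcKO, against 0 for all probes.

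Sox21, which acts in hair, had values that its probes did not share. With A_55_P2052655 the log2 ratio was 0.22 and −0.02 in Sox4cKO, 0.33 and −0.03 in Sox11cKO, and −0.25 and 0.17 in dcKO. With A_55_P2104899 it was 0.06 and −0.20, −0.07 and 0.55, and 0.21 and 0.51 in the same order. The probes disagreed in sign on both Sox11cKO arrays and on dcKO replicate 1. In dcKO the fitted change was −0.04 with the first (limma adjusted p = 0.969) and 0.36 with the second (95% interval −0.01 to 0.73, adjusted p = 0.524), so that an increase of up to 1.66-fold lay within the interval of the second.

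The SOXD genes Sox6 and Sox13 were measured in every channel. Sox6, known from cartilage and muscle, had ratios of −0.20 and −0.38 in Sox4cKO, −0.30 and 0.12 in Sox11cKO, and −0.29 and −0.16 in dcKO. Sox13, known from gamma-delta T cells, had ratios of 0.00 and −0.14, −0.12 and −0.13, and −0.01 and 0.27 in the same order. Sox15, the single SOXG gene, had −0.34 and 0.08, −0.12 and −0.13, and 0.33 and 0.12. These 3 probes thus stayed within 0.38 of 0 on every array.

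In dcKO the fitted change was −0.22 for Sox6 (limma adjusted p = 0.673), 0.13 for Sox13 (0.823) and 0.22 for Sox15 (0.681). The upper ends of their 95% intervals were 1.08-fold, 1.36-fold and 1.47-fold. In the single knockouts the upper ends for these 3 probes lay between 1.03-fold and 1.18-fold.

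The SOXF genes of endothelium, Sox7 and Sox18, had values of opposite sign in dcKO, and neither passed. Sox7 had ratios of 0.81 and 0.35 in dcKO, −0.02 and −0.21 in Sox4cKO, and −0.32 and 0.29 in Sox11cKO. Its level of 6.48 in dcKO replicate 1 was above all 6 wild-type values, which reached 5.80, and that of 5.82 in replicate 2 was just above them. The fitted change in dcKO was 0.58 (95% interval 0.16 to 1.00, limma adjusted p = 0.317). This upper end, 1.99-fold, was the highest of the 13 probes in any genotype. Under other settings the value ran from 0.25, without dcKO replicate 1, to 1.34 on the log2 scale. The latter is above the upper end of the interval, which is therefore no ceiling on a rise.

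The difference of Sox7 in dcKO from either single knockout did not pass, at 0.69 from Sox4cKO (limma adjusted p = 0.767) and 0.59 from Sox11cKO (0.691). Sox18 had ratios of −0.70 and 0.12 in Sox4cKO, −0.07 and −0.26 in Sox11cKO, and −0.42 and −0.75 in dcKO, with a fitted change in dcKO of −0.59 (−1.03 to −0.14, adjusted p = 0.354). Its knockout channels were never above background. By the comparison with background used for the dim Sox4 probe, the knockout was 1.21-fold lower in dcKO.

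Most blood vessel markers lay near background. Of 10 examined, 2 were above background in all 12 channels, and Tie1, Tek, Emcn and Esam in none. Their median change was −0.11 in Sox4cKO, 0.00 in Sox11cKO and −0.12 in dcKO, and none passed in any genotype. Their summed intensity lay between 864 and 1230 in the wild type and between 863 and 1060 in the knockouts. The part of vessel cells in the Sox7 and Sox18 values was not tested.

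**Figure D4:**
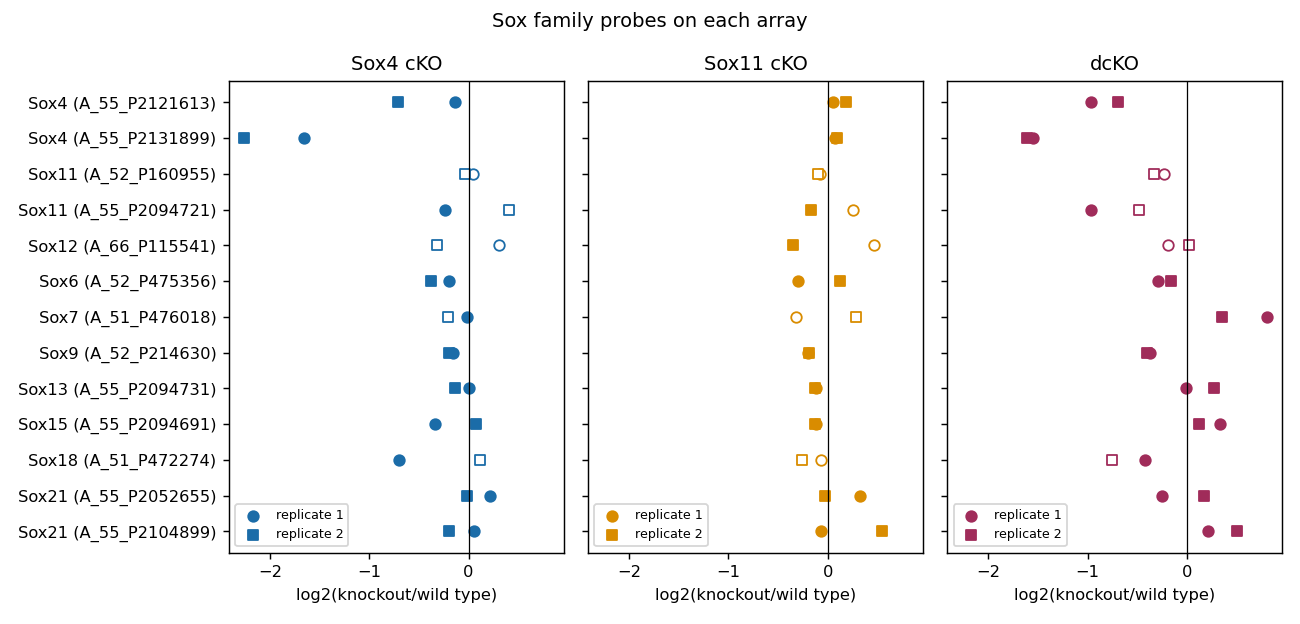
Log2(knockout/wild type) of the 13 Sox probes on each array, one panel per genotype, with circles for replicate 1 and squares for replicate 2. Open symbols mark arrays where neither channel was well above background. The dim Sox4 probe (A_55_P2131899) stands apart in Sox4cKO (−1.66 and −2.26) and dcKO (−1.55 and −1.61), and the other probes lie between −0.96 and 0.81.

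Over the 13 Sox probes together, 1 passed in Sox4cKO, 0 in Sox11cKO and 1 in dcKO, each time lower and each time the dim Sox4 probe. None of the 13 passed as higher in any genotype, while 0.524% of all probes did in dcKO. At an unadjusted p under 0.05, there were 2 in Sox4cKO (6.18% of all probes) and 6 in dcKO (9.89% of all probes), of which Sox7 was the only one with a positive value. The median log2 change of the 13 was −0.11 in Sox4cKO, −0.02 in Sox11cKO and −0.22 in dcKO, against 0 for all probes in each. The lowest adjusted p among probes with a positive change was 0.957 in Sox4cKO, 0.81 in Sox11cKO and 0.317 in dcKO. The dcKO change was also set against the Sox4cKO and Sox11cKO changes added up. By limma 0 of 13 departed from that sum, against 0.088% of all probes, and at an unadjusted p under 0.05 it was 1 of 13, against 6.38%, namely the Sox11 probe A_55_P2094721 (−0.85, adjusted p = 0.764).

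**Figure D5:**
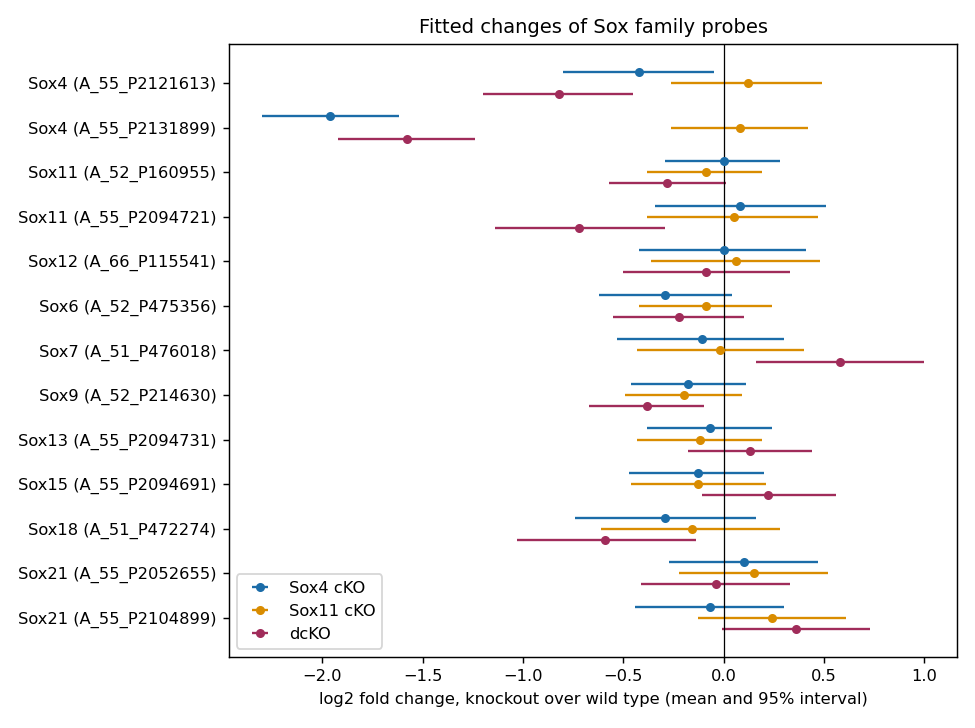
Fitted log2 fold change (points) and 95% interval (lines) of the 13 Sox probes in Sox4cKO (blue), Sox11cKO (orange) and dcKO (purple), with the line at 0 for no change. The intervals of the dim Sox4 probe in Sox4cKO and dcKO lie entirely below −1.2, and the highest upper end is 1.00, for Sox7 in dcKO.

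Among the 10 other Sox genes, 2 of 13 probes were above background in all 12 channels and 9 in none. Sox10, a gene of melanocytes and Schwann cells, had a wild-type level of 6.97 to 7.51 and fitted changes of 0.31, 0.03 and −0.18 in Sox4cKO, Sox11cKO and dcKO (limma adjusted p = 0.828, 0.983 and 0.788). The melanocyte markers had medians of 0.00, 0.03 and −0.14 in the same order, and none passed. One Sox5 probe (A_55_P2156905) had changes of −0.02, −0.06 and −0.17, with a wild-type level of 12.33 to 12.84, whereas the second Sox5 probe (A_51_P500318) was never above background. None of the 13 probes passed in any genotype, beside 0.00539% of all probes in Sox4cKO, 0% in Sox11cKO and 0.833% in dcKO. At these shares a list of this size would rarely hold a passing probe, so the count says little about these genes. The same holds for the marker lists in which none passed.

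Genes downstream of the SOXC proteins were read beside the family. The list held Tead2, Tubb3, Dcx and Prox1, known SOXC targets, and Fscn1, Fblim1, Marcksl1 and Pxdn, whose bound regions the study tested in reporters, as it did for Tead2. The list was drawn up with results of these samples known, so its counts are not independent evidence of direction. In dcKO 5 of the 8 fell, beside 0.309% of all probes, and none rose. Pxdn, a peroxidase of the extracellular matrix, fell by 1.18 (limma adjusted p = 0.00527), and Marcksl1, an actin-binding protein, fell by 1.18 (0.00774). Fblim1, a protein of focal adhesions, fell by 1.09 (0.0109), Fscn1, an actin-bundling protein, fell by 0.88 (0.0191), and Tead2, a DNA-binding partner of YAP, fell by 0.87 on the log2 scale (0.0323).

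None of these 8 passed in Sox4cKO or Sox11cKO, where 0.00539% and 0% of all probes passed, so these counts say little about the 8. Their median change was −0.68 in Sox4cKO, −0.15 in Sox11cKO and −0.88 in dcKO, against 0 for all probes. In Sox4cKO the fitted change was −1.07 for Pxdn, −0.86 for Marcksl1, −0.60 for Fblim1, −0.76 for Fscn1 and −0.92 for Tead2. In Sox11cKO it was −0.25, −0.27, −0.07, −0.31 and −0.24 in the same order. No test of the difference between genotypes is reported here for these genes, so passing in dcKO alone is no such difference. Tubb3, a neuronal tubulin, had −0.02, 0.68 and −0.05 in Sox4cKO, Sox11cKO and dcKO (limma adjusted p = 0.994, 0.651 and 0.956), and Dcx and Prox1 were never above background.

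The genes whose ratios were most like those of the dim Sox4 probe over the 6 arrays, after the dye term was removed, were Fbxo5 (Pearson r = 0.999), Nphp4 (0.997), Slc22a13b (0.992), Otud4 (0.991) and Spindoc (0.99), the highest of 11223 candidates. The arrays share genotypes in pairs, and their changes were small. Fbxo5, an inhibitor of the anaphase-promoting complex, had −0.37 in Sox4cKO, −0.13 in Sox11cKO and −0.33 in dcKO, and none of the 5 passed in any genotype.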

How the data were processed

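The authors scanned the arrays with Agilent Feature Extraction 11.0.1.1. The deposited scanner files give the median intensity of each spot in both dyes, a log10 ratio of red over green, and marks for spots above background. The authors' series table holds log2 ratios, made in limma by normexp correction (offset 16) and loess. Recomputed from the intensities as knockout over wild type, these ratios matched with a slope of 1 and r of 1 on every array, so the ComBat step of the methods is not in the table. RNA (25 ng) had been amplified before labelling.

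In R 4.3.3 with limma 3.58.1, a model with a coefficient per genotype and a dye coefficient was fitted to all 6 arrays and 55681 probes (6.65 prior and 2 residual degrees of freedom). Dye and replicate number coincide, so this coefficient is also the replicate block. Deviations of arrays with the same replicate number correlated at 0.259, 0.306 and 0.328, and the numbers come from the labels. A probe passed at a Benjamini-Hochberg adjusted p under 0.05 over all probes, and was called when the absolute log2 fold change was also over 1.5. Tests were two-sided. The code was tested on simulated data. Channel levels are log2 intensities after loess and Aquantile scaling. For the dim Sox4 probe, and for Sox11 (A_55_P2094721) and Sox18 in dcKO, a fold is given beside the fitted change where the knockout was below background on both arrays. It compares the mean of the brighter group with the lowest signal above background, or the dimmer group's own signal if higher, and is no lower limit.

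Named through RefSeq (GRCm38.p6), 28341 probes had a symbol. No coordinates are given, because the array design used another build. All probes of the listed Sox genes are reported. Outside the family, a gene is represented by its brightest probe, and the values given are those of the lists' passing members or of markers beside a result. The members and lists were chosen with earlier results of these data known. With 2 arrays per genotype, the number of arrays limits the precision.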

Additional observations from a re-analysis of the deposited data

Results flagged for a closer look

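The dim Sox4 probe (A_55_P2131899) was marked for a closer look because its change differed between genotypes by a test of the difference itself, at −1.66 (log2) for dcKO minus Sox11cKO. Of 6 Sox probes above background in all wild-type samples, none had a wild-type sample far from the others.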

How the results depend on the processing

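Of 1584 values recomputed for single probes under other settings, 1566 kept their side of the threshold, 11 lost it and 7 gained it. Most of these values belong to results that did not pass in the main fit and had no pass to lose. All 11 losses fell on the dim Sox4 probe, the only Sox probe that passed. It still passed under 8 of 13 settings in Sox4cKO, 12 of 13 in dcKO and 7 of 12 for dcKO minus Sox11cKO. The sign changed in 114 of the 1584 values, none of which passed before or after. Probes called in Sox4cKO numbered 3, with 0 at an offset of 50, 1 without background subtraction, 0 with the scanner software's log ratio, 0 without dim probes, 5 with the genotype's own arrays and 0 to 39 when 1 array was left out. In Sox11cKO there were 0, with 1 at an offset of 50, 7 without background subtraction, 2 with its own arrays and 1 to 40 when 1 array was left out. In dcKO there were 115, with 0 by the scanner software's ratio and 121 to 168 when 1 array was left out. The Sox probes passing in Sox4cKO were 1, with 0 by the scanner software's ratio, 0 without dim probes and 0 to 1 when 1 array was left out. In dcKO they were 1, with 2 at an offset of 50, 2 without background subtraction, 0 by the scanner software's ratio, 2 with its own arrays and 1 to 2 when 1 array was left out. Between dcKO and Sox11cKO the count was 1, with 0 by the scanner software's ratio and 0 to 1 when 1 array was left out, and between Sox4cKO and Sox11cKO it was 0, with 0 to 1. The cause was not tested. Without the replicate block, dcKO had 103 called probes and the Sox count between dcKO and Sox11cKO was 0. The block changed no other call of a Sox probe. For probes near background the size of a ratio was not settled: the Sox11 probe A_55_P2094721 had −0.36 in dcKO at an offset of 50 and −2.60 by the scanner software.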
